A study of Homo sapiens with 4 samples.

Results

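The respiratory chain genes examined here were the protein-coding nuclear genes whose symbols begin with NDUFA, NDUFB, NDUFC, NDUFS, NDUFV, UQCR, ATP5, SDHA, SDHB, SDHC, SDHD, COX4, COX5, COX6, COX7 or COX8. The symbol rule took 102 of the 20046 protein-coding genes of GENCODE release 44, and it used no measured value. They comprised 37 subunit genes of complex I, 4 of complex II, 9 of complex III, 19 of complex IV and 18 of complex V. The rule also took in 8 complex I assembly factors, 4 complex II assembly factors, the ATP synthase inhibitor ATP5IF1 and 2 read-through genes (ATP5MF-PTCD1 and NDUFC2-KCTD14). NDUFA4 and its paralogue NDUFA4L2 were placed with complex IV, since NDUFA4 is a subunit of that complex despite its name.

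HepG2, an established human hepatocellular carcinoma cell line, was either mock-treated with water or treated with 20 µM pyridostatin (PDS), a small molecule that binds guanine quadruplex (G4) structures, for 24 h. POLR2A HiChIP-seq, in which proximity ligation is followed by immunoprecipitation of the largest subunit of RNA polymerase II (RNAPII), was run on 2 biological replicates of each condition. The deposited data were 1 loop list per condition, giving a pair of anchors and the number of paired-end tags (PETs) for each loop. A loop was counted for a gene where an anchor lay within 1 kb of any annotated transcription start site (TSS) of that gene, and a loop in either list with an anchor at a TSS of a protein-coding gene is called a promoter loop.

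The respiratory chain passes electrons from NADH and succinate through complexes I to IV to oxygen, and the proton gradient it builds drives ATP synthesis by complex V. Most of its subunits are encoded in the nucleus by genes that nearly every cell transcribes, and their promoters are textbook targets of the factors NRF1, GABPA (an ETS factor) and YY1. In the liver this machinery supplies the ATP used for the synthesis and export of plasma proteins.

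Since PDS binds G4 structures, some predicted G4 motifs near the start sites are shown first. The motif searched on both strands of GRCh38 was a series of 4 G runs, each 3 or more bases long, separated by 1 to 7 bases. The runs are in capitals. These genes were among those with most PETs in 1 of the lists, and their motifs lay outside untranslated regions.
UQCRC2, intron, 121 bp after the start site, chr16:21953472-21953492, plus strand: GGGtttGGGaaaGGGctGGGG
NDUFA4L2, intron, 375 bp after the start site, chr12:57236716-57236742, minus strand: GGGtgactGGGaactgcGGGGagaGGG
NDUFAF5, intron, 284 bp after the start site, chr20:13785301-13785324, plus strand: GGGGcggcGGGGcggcGGGGcGGG
NDUFS6, 108 bp before the start site and within an intron of MRPL36, chr5:1801287-1801311, minus strand: GGGGagcgcGGGtcGGGGcagaGGG
COX6A2, intron, 426 bp after the start site, chr16:31427914-31427954, minus strand: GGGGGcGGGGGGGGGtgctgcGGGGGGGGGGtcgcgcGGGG
COX4I1, intron, 664 bp after the start site, chr16:85800350-85800368, plus strand: GGGcccGGGtgaGGGGGGG

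A motif lay within 1 kb of the canonical TSS of 62 of the 102 genes (60.8%, 95% Wilson interval 51.1 to 69.7%), against 68.6% of all protein-coding genes. Close to the TSS the difference was wider. From 250 bases before to 50 bases after the TSS, 15 of the 102 genes held a motif (14.7%, 9.12 to 22.9%), against 33.8% of all protein-coding genes (33.2 to 34.5%). Other housekeeping families were also low in this narrow window, at 9.89% of the cytosolic ribosomal protein genes, 17.9% of the mitochondrial ribosomal protein genes and 22.5% of the proteasome subunit genes. With spacers of up to 12 bases and the window of 1 kb, the shares were 83.3% and 82.1%, so the order turned with the longer spacers, while it was the same in both windows with the shorter ones. No motif was found within 1 kb of the TSS of NDUFB1, ATP5MGL, ATP5F1E or ATP5MC1, each of which was among the genes with most loop PETs in mock-treated cells. Others with many PETs, such as UQCRC2 and ATP5MC3, did have one. The loop anchors reached beyond this window, and those of ATP5MGL and ATP5MC1 held 12 and 2 motifs. The anchor with the canonical TSS of NDUFB1 held 1, and that of ATP5F1E held none.

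Sequences of the promoters, as given by RefSeq for GRCh38.p14 from 250 bases before to 50 bases after a start, were matched by symbol for 82 of the 102 genes (100 promoters) and for 15345 protein-coding genes (21613 promoters). Motif letters were searched on both strands. The NRF1 motif, a palindrome of GCGCA followed by its reverse complement, was in 5 of the 100 promoters (5%, 95% Wilson interval 2.15 to 11.2%), against 1.48% of all promoters. The ETS motif CCGGAAGT was in 13 (13%, 7.76 to 21.0%) against 5.41%, and the YY1 motif AAGATGGCG in 12 (12%, 7.0 to 19.8%) against 2.45%. The intervals for these 3 motifs lay above the shares of all promoters, among 7 motifs compared and with no adjustment for their number. They take the 100 promoters as independent, although these came from 82 genes and promoters of 1 gene can share a motif. The general promoter motifs did not stand apart in this way, with GGGCGG (SP1) in 63% against 56.8%, CCAAT in 35% against 34.9% and TATAAA in 7% against 9.45%. The median GC content of the promoters was 61% against 62.3%. GGGCGG holds a run of G and can therefore overlap a G4 motif.

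Stretches of 100 bases directly before the start site of 3 of these genes show the NRF1 and ETS letters in their context. They are shown because they lie outside any annotated untranslated region, and the motif is in capitals.
ATP5F1C (the gamma subunit of the rotor stalk of complex V), NRF1, chr10:7788077-7788176, plus strand: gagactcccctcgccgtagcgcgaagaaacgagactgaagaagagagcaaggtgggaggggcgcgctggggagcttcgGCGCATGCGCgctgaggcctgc
COX5B (a zinc-binding subunit of complex IV), ETS, chr2:97645962-97646061, plus strand: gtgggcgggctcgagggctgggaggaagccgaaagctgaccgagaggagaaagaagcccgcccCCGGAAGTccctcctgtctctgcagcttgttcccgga
COX8A (a small, widely expressed subunit of complex IV), ETS on the opposite strand, chr11:63974520-63974619, plus strand: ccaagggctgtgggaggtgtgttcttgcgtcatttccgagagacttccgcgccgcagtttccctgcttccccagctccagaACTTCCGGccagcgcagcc
ATP5F1C had 1 mock loop with 3 PETs and no PDS loop, and neither COX5B nor COX8A had a loop in either list. A match to these letters describes the sequence only, and no binding of the factors was measured here.

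**Figure D1:**
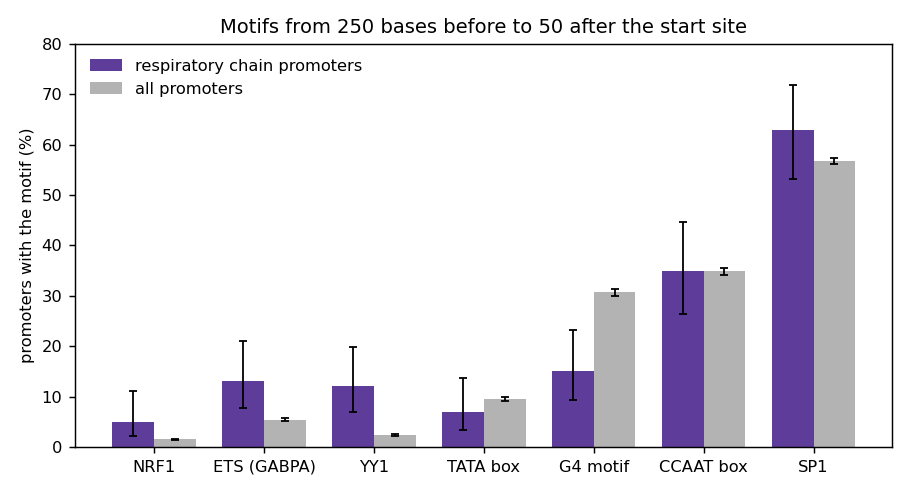
Share of promoters (%) with each motif in the window from 250 bases before to 50 bases after a start site, for 100 respiratory chain promoters and 21613 promoters of all protein-coding genes, with 95% Wilson intervals. NRF1, ETS and YY1 letters were more frequent in the respiratory chain promoters (5, 13 and 12%) than in all promoters (1.48, 5.41 and 2.45%), and the G4 motif was less frequent (15% against 30.7%).

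Some facts of the lists bear on every value below. The mock list held 254647 PETs and the PDS list 67001, and these were not scaled for sequencing depth, which was not used here. The PDS/mock ratio over all promoter loops was 0.254 for loops (7768 against 30535) and 0.228 for PETs, and the values of the respiratory chain genes are to be read against these. No list held a loop under 3 PETs, so a loop absent from a list may have had up to 2 PETs, and loss of a loop with 3 PETs was not detectable at this depth. All intervals of ratios and shares below cover counting error only, since the replicates were combined, and no p-value between the conditions can be had. PETs depend on POLR2A at an anchor as well as on contact between anchors, and these cannot be told apart in the lists. A mock loop was found at 13 of 14 hepatocyte marker genes, against 59.8% of all protein-coding genes. The numbers ran from 13 loops at ALB and at HNF4A to 1 at TTR, and APOA1 had none. Loops at a gene do not by themselves mark the cell type, since 9 of 12 markers of other cell types had one too.

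In mock-treated cells, RNAPII-linked loops were found at 62 of the 102 respiratory chain genes (60.8%), against 59.8% of all protein-coding genes. In PDS-treated cells they were found at 29 (28.4%, 95% Wilson interval 20.6 to 37.8%), against 28.7%. Of the 62 genes with a mock loop, 37 had no PDS loop (59.7%, 47.3 to 71.0%), against 56.4% of all genes with a mock loop. These 3 shares were near those of all protein-coding genes. In neither list was a loop found at 36 genes (35.3%, 26.7 to 44.9%), near the 37.6% of all protein-coding genes. Examples were SDHB and SDHD of complex II, COX5A, COX5B, COX7C and COX8A of complex IV, ATP5F1A (the alpha subunit of complex V) and UQCRFS1 (the Rieske protein of complex III).

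In all, these genes were touched by 166 loops holding 629 PETs in the mock list, against 40 loops holding 138 PETs after PDS. The loop ratio was 0.241 (95% interval 0.171 to 0.340) and the PET ratio 0.219 (0.183 to 0.264), and both intervals included the ratios of all promoter loops. At the PDS/mock ratios of promoter loops on the same chromosomes, 40.9 PDS loops would have been listed, and 40 were. The ratio of the respiratory chain genes was thus within counting error of that of promoters in general.

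The complexes differed in the number of loops, while their ratios had wide intervals. Complex I genes had 50 loops in mock-treated and 9 in PDS-treated cells (ratio 0.180, 95% interval 0.0898 to 0.361), and 17 of their 22 genes with a mock loop had no PDS loop (77.3%, 95% Wilson interval 56.6 to 89.9%, against 56.4% of all genes with a mock loop). Complex III genes had 22 and 6 loops (0.273, 0.114 to 0.654), complex IV genes 30 and 6 (0.200, 0.0854 to 0.468) and complex V genes 39 and 10 (0.256, 0.130 to 0.507). Complex II genes had 3 mock loops and no PDS loop, and the interval for that ratio reached 1.28. A mock loop was found at 15 of the 18 complex V genes (83.3%, 95% Wilson interval 60.8 to 94.2%), the highest share of the 5 complexes, with a lower bound close to the 59.8% of all protein-coding genes. The shares in the other housekeeping families were 72.5% for cytosolic ribosomal protein genes, 73.1% for mitochondrial ribosomal protein genes and 72.5% for proteasome subunit genes.

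The assembly factors, which build complexes I and II without being part of them, had a higher ratio of summed PETs than the subunits. Their loops numbered 22 in mock-treated and 9 in PDS-treated cells (0.409, 95% interval 0.192 to 0.872), and their PETs 80 and 32, a PET ratio of 0.40 (0.266 to 0.601). The PET ratio of the 87 subunit genes was 0.193 (0.157 to 0.238), and the intervals of the assembly factors and the subunits did not overlap. The loop ratios did overlap, with 0.215 (0.146 to 0.317) for the subunits. Without NDUFAF5 the PET ratio of the assembly factors was 0.404 (0.245 to 0.667), and without NDUFAF6 it was 0.434 (0.267 to 0.705). Of their 22 mock loops, 3 were listed in both conditions (13.6%), and 6 of their 9 PDS loops were in the PDS list alone. Of the 32 PDS PETs of the assembly factors, 11 lay at NDUFAF5 and 9 at NDUFAF6, and PETs of 1 loop are not independent of each other. NDUFAF5, NDUFAF7 and NDUFAF8 lie on chromosomes 20, 2 and 17, where the loop ratio of all promoter loops was 0.318, 0.277 and 0.253. It was 0.220, 0.231 and 0.180 on chromosomes 8, 3 and 19, which held the other loops of assembly factors. The part of the chromosomes in the higher ratio was not tested. The higher ratio did not extend to the 41 assembly factors with other symbols once NUBPL was left out, a setting chosen after the data had been seen. Their PET ratio was 0.294 (0.238 to 0.364; 377 and 111 PETs) with NUBPL and 0.177 (0.130 to 0.240; 271 and 48 PETs) without it.

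The PET ratios of other housekeeping families lay below the 0.219 of all respiratory chain genes. Not all of them lay below the 0.193 of the subunit genes alone. The PET ratio was 0.153 (95% interval 0.123 to 0.190) for cytosolic ribosomal protein genes, 0.201 (0.163 to 0.246) for mitochondrial ribosomal protein genes and 0.201 (0.161 to 0.25) for proteasome subunit genes. Each of these intervals overlapped that of the respiratory chain genes, which does not show that the ratios were equal. The interval of the cytosolic ribosomal protein genes lay below the 0.228 of all promoter loops, while the other intervals included it.

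**Figure D2:**
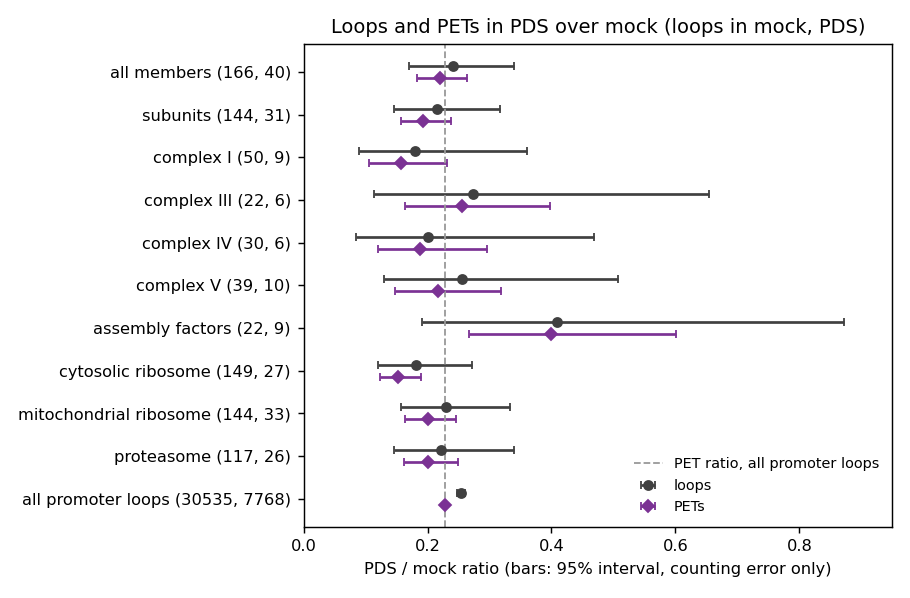
PDS/mock ratios of loop numbers (circles) and PETs (diamonds) with 95% intervals for counting error, for the respiratory chain genes, their complexes (complex II, with no PDS loop, is left out), and 3 comparison families. Numbers in brackets are loops in mock and PDS, and the dashed line is the PET ratio of all promoter loops (0.228). The assembly factors lie to the right of the line (0.40), and the PET ratios of the complexes lie between 0.157 and 0.255.

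Complex I takes electrons from NADH, and its genes with most PETs were accessory and core subunits alike. NDUFA10, an accessory subunit, had 5 loops with 19 PETs in mock-treated and 1 with 4 PETs in PDS-treated cells. NDUFB1, a small accessory subunit of the membrane arm, had 3 loops with 18 PETs and no PDS loop. NDUFA11, an accessory subunit of the membrane arm, had 4 loops with 17 PETs against 1 with 3. NDUFS7 and NDUFV2, core subunits that carry iron-sulfur clusters, each had 4 mock loops with 14 PETs and no PDS loop. At NDUFV2 no loop had an anchor at the canonical TSS, whereas 3 of the 4 loops at NDUFS7 did. NDUFC2 had 3 loops with 11 PETs against 2 with 6, and the read-through gene NDUFC2-KCTD14, which starts at the same sites, had the same loops.

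NDUFS6, a zinc-binding accessory subunit of complex I, was among the few genes with more PETs in PDS-treated cells. Its mock loops held 4 and 3 PETs and its PDS loops 3, 4 and 3, giving sums of 7 and 10 PETs. The only loop listed in both conditions, over 54.6 kb, had 4 and 3 PETs. The difference therefore came from loops with 3 or 4 PETs that were listed in 1 condition alone, which is within what the minimum of 3 PETs can add or remove. All 5 values lay at a single anchor of 29.0 kb that also held the TSS of MRPL36, a mitochondrial ribosomal protein gene, and 13 G4 motifs.

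At complex II, which oxidizes succinate, SDHA (the flavoprotein subunit) had 2 loops with 7 PETs in mock-treated cells, and SDHC (a membrane anchor) had 1 with 3 PETs. Neither had a PDS loop. With so few PETs, the lists cannot show whether complex II differed from other promoters.

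At complex III, which passes electrons from ubiquinol to cytochrome c, UQCRC2, a core subunit, had more PETs than any other respiratory chain gene in both lists. Its 11 mock loops held 52 PETs and its 4 PDS loops 16. The strongest loop joined an internal start site of UQCRC2 to PDZD9, its downstream neighbour, over 22.6 kb, with 10 PETs in mock-treated and 5 in PDS-treated cells. Another, between internal start sites of UQCRC2 itself, had 9 and 5 PETs. Both used an anchor in the 3′ part of the gene that held no G4 motif. Only 1 mock loop (6 PETs) and 1 PDS loop (3 PETs) reached the canonical TSS, so nearly all of these PETs belonged to annotated alternative starts within the gene. The 6 mock loops of UQCRC2 with 3 PETs, over 75.5 to 417 kb, were not in the PDS list.

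The other complex III genes had fewer PETs. UQCRH, the acidic hinge protein, had 4 loops with 14 PETs against 1 with 4, and UQCRHL, its intronless copy, had 2 loops with 7 PETs against none. Since the copies are nearly identical in their coding sequence, tags from that sequence may be placed at the wrong copy. UQCR10, a small subunit, had 2 loops with 10 PETs and no PDS loop. UQCRC1, the second core subunit, had 2 loops with 8 PETs against 1 with 4, and its PDS loop to SLC26A6 over 19.6 kb was not in the mock list, where a longer loop to SLC26A6 of 27.9 kb had 3 PETs.

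Complex IV reduces oxygen, and several of its subunits exist as a widely expressed form and a form restricted to certain tissues. COX7A2L, a relative of COX7A that links complexes III and IV into supercomplexes, had 8 mock loops with 31 PETs and 1 PDS loop with 3. The loop listed in both, over 19.6 kb inside the gene, had 7 and 3 PETs. NDUFA4L2, known as a hypoxia-induced relative of NDUFA4, had 6 mock loops with 30 PETs and 1 PDS loop with 4. COX4I1, the widely expressed form of a regulatory subunit, had 3 loops with 13 PETs against 1 with 3, at an anchor that also held the TSS of its divergent neighbour EMC8.

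At NDUFA4L2, all 6 mock loops used 1 anchor of 8.21 kb, at an alternative start upstream of the canonical TSS. The other end of 5 of them lay at promoters of other genes. The PETs of these 5 were 7 to NXPH4, 7 to R3HDM2, 5 to STAC3, 4 to SHMT2 and 3 to STAT6. The remaining loop, with 4 PETs, ended at an anchor within 1 kb of the canonical TSS but short of it. That anchor also counted for a TSS of SHMT2. SHMT2 encodes the mitochondrial serine hydroxymethyltransferase, and STAT6 a transcription factor of cytokine signalling. The loop to NXPH4, over 30.2 kb, was alone among the 6 in being listed in PDS-treated cells, with 4 PETs. The anchor of 8.21 kb held 11 G4 motifs.

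The paired isoforms of complex IV and of NDUFA4 and UQCRH did not divide by tissue range. Among widely expressed forms, COX4I1, COX6A1, COX6B1, COX7A2 and UQCRH had a mock loop, while COX7B, COX8A and NDUFA4 had none. Among restricted forms, COX6A2 (muscle and heart), COX6B2 and COX8C (testis), NDUFA4L2 and UQCRHL had a mock loop, while COX4I2, COX7A1 and COX7B2 had none. COX8C had 3 mock loops with 10 PETs, of which 2 ended inside its neighbour BTBD7 and the other at start sites of BTBD7 and UNC79. COX7A1, a muscle form, had 1 loop with 3 PETs in PDS-treated cells alone. A loop at a TSS is a contact of a region of several kb, and no expression of these isoforms was measured here.

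COX6A2 was the site of the only loop of the 15 listed in both conditions that had more PETs in PDS-treated cells. This loop, to ZNF843 over 9.09 kb, had 4 PETs in mock-treated and 6 in PDS-treated cells, the highest PET count of any respiratory chain loop in the PDS list. The 2 other mock loops of COX6A2, both to ITGAD, had 3 PETs each and were not in the PDS list. The anchor at COX6A2 ended short of the 3 G4 motifs within 1 kb of the TSS and held none.

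Complex V makes ATP. ATP5MGL, a paralogue of the subunit g gene, had 10 mock loops with 37 PETs and 1 PDS loop with 3. It lies inside CYB5R3, a gene for cytochrome b5 reductase, and each of its loops shared an anchor with a TSS of CYB5R3, so none can be assigned to ATP5MGL alone. ATP5MC3, a gene for subunit c of the rotor ring, had 5 loops with 5, 4, 3, 3 and 3 PETs and no PDS loop. ATP5MC1, which encodes the same mature subunit, had 4 loops with 13 PETs against 2 with 7. ATP5F1D (the delta subunit) had 3 loops with 16 PETs against 1 with 3, and ATP5F1E (the epsilon subunit) 4 with 15 against 1 with 3.

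ATP5MJ, a small subunit of complex V, had 1 mock loop with 3 PETs and 2 PDS loops with 3 PETs each, at different partners. ATP5PB, the subunit b gene, had 1 PDS loop with 3 PETs and no mock loop. All of these values lay at the minimum of the lists.

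The complex I assembly factors had some of the highest PET counts. NDUFAF5, which hydroxylates an arginine of NDUFS7, had mock loops with 5, 4, 4, 4, 4, 4 and 3 PETs and PDS loops with 4, 4 and 3. The loop listed in both, over 83.0 kb to the body of ESF1, had 4 and 3 PETs. All 3 PDS loops left the same anchor, in the 3′ part of NDUFAF5, and none had an anchor at the canonical TSS, against 3 of the 7 mock loops. The PDS loops with 4 PETs spanned 37.8 and 48.2 kb, and their partners lay in the body of the divergent neighbour ESF1.

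NDUFAF6 had 8 loops with 27 PETs against 3 with 9, none at the canonical TSS. Of its mock loops, 5 with 16 PETs used an anchor that also held a TSS of TP53INP1. Another, with 3 PETs, used an anchor that also held a TSS of CCNE2. NDUFAF7, an arginine methyltransferase, had 5 loops with 18 PETs against 1 with 4, and the loop listed in both had 5 and 4 PETs. NDUFAF8, which acts with NDUFAF5, had no mock loop and 1 PDS loop with 5 PETs, to SLC38A10 over 25.9 kb. This was the only PDS-only loop of the respiratory chain genes with more than 4 PETs. Its anchor at NDUFAF8, 14.2 kb wide, also held the TSS of TEPSIN and 13 G4 motifs. Anchors with many motifs also occurred where PETs were fewer in PDS-treated cells. Examples were ATP5F1D (27 motifs, 16 and 3 PETs) and ATP5MGL (12 motifs, 37 and 3 PETs).

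**Figure D3:**
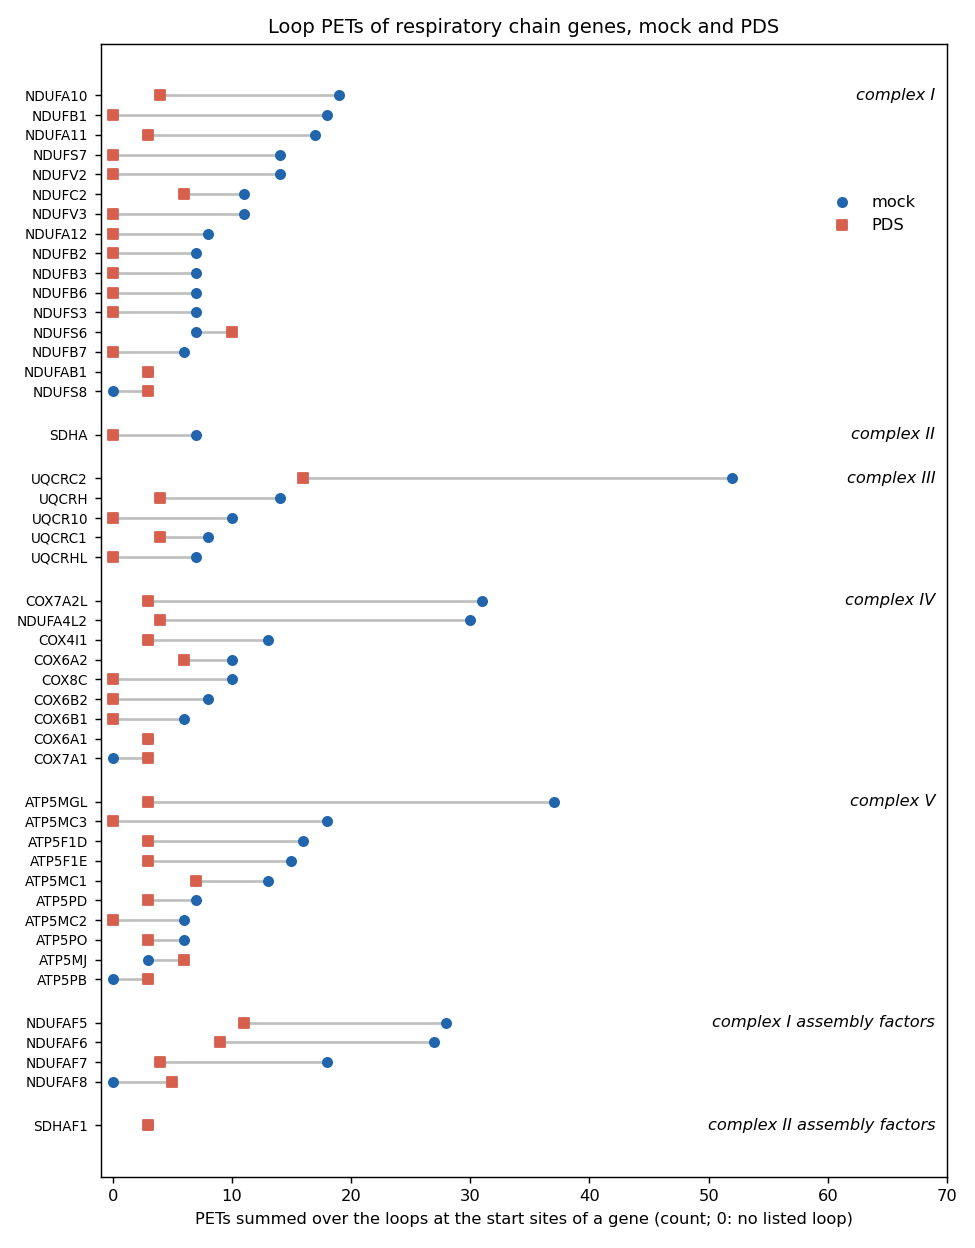
PETs summed over the loops of each gene in mock-treated (circles) and PDS-treated (squares) cells, for 46 genes with at least 6 mock PETs or a PDS loop, ordered by complex (read-through genes are left out, 0 means no listed loop, and a lone square marks equal counts). UQCRC2 has the most PETs in both conditions (52 and 16), and only NDUFS6, NDUFS8, COX7A1, ATP5MJ, ATP5PB and NDUFAF8 have more PETs in PDS-treated cells.

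Gene by gene, 6 of the 66 genes with a loop in either list had more PETs in PDS-treated cells (9.09%, 95% Wilson interval 4.23 to 18.4%), against 6.35% of all genes with a loop. They were NDUFS6, ATP5MJ and the 4 genes with a PDS loop and no mock loop, NDUFS8, COX7A1, ATP5PB and NDUFAF8. Those 4 were 13.8% of the 29 genes with a PDS loop (5.50 to 30.6%), against 9.06% of all genes with a PDS loop. Neither share differed from that of all genes beyond its interval.

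Of the 25 genes with at least 10 mock PETs, 2 had a PET ratio whose 95% interval lay below the ratio of all promoter loops, against 12.4% of the 5413 genes tested in the same way, so that this count was not above the background. These were NDUFB1 and ATP5MC3, each with 18 mock PETs, no PDS loop and an interval reaching 0.213. None of the 25 had an interval above that ratio, against 8.52% of all genes tested. The interval counted unlisted loops as 0 PETs. With 2 PETs for every mock loop missing from the PDS list, a setting chosen after the data had been seen, neither gene remained below.

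Single loops that were strong in mock-treated cells were not always listed in PDS-treated cells. NDUFB1 had 9 PETs in a loop over 9.04 kb between an alternative start of NDUFB1 and an anchor with its canonical TSS and that of CPSF2, its divergent neighbour, and 6 PETs in a loop to ATXN3, which encodes the deubiquitinase ataxin-3. ATP5F1D had 9 PETs in a loop over 16.2 kb to CIRBP, the gene of a cold-inducible RNA-binding protein, from an anchor shared with MIDN. The PDS list held none of these 3 loops. Of all promoter loops with 9 mock PETs, 43.7% were listed in both conditions, so a loop of that strength was missing from the PDS list more often than not.

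Of the 166 mock loops, 15 were listed in both conditions (9.04%, 95% Wilson interval 5.55 to 14.4%), against 10.98% of all promoter loops. At the rates of promoter loops with the same mock PETs, 17.4 would have been listed in both. Of the 15, PETs were fewer in PDS-treated cells at 11, equal at 3 and more at 1, and the median log2 PDS/mock was -0.42, as for all 3353 shared promoter loops (-0.42). Among the 25 loops of the PDS list alone, 18 had 3 PETs, 6 had 4 and 1 had 5.

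**Figure D4:**
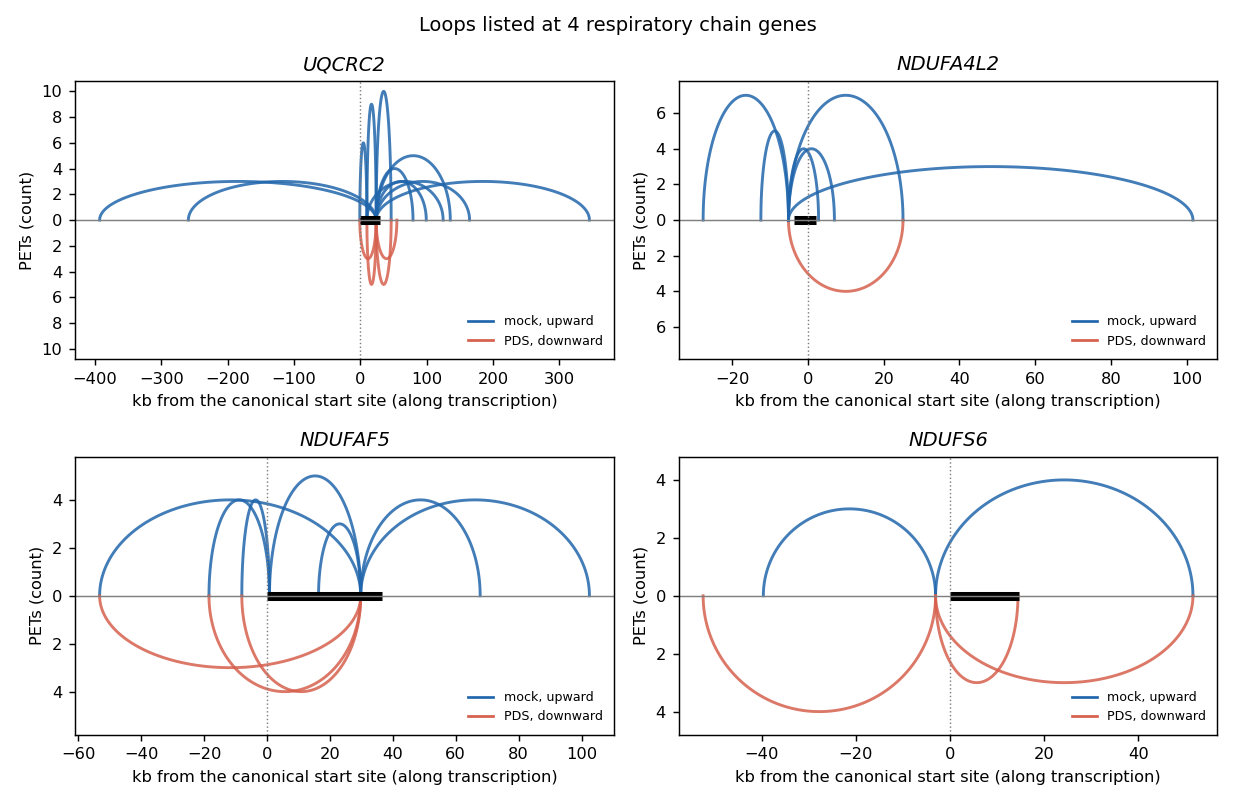
Loops at UQCRC2, NDUFA4L2, NDUFAF5 and NDUFS6, drawn as arcs between anchor midpoints, with mock loops upward and PDS loops downward. The height of an arc is its PET count, the horizontal axis is the distance in kb from the canonical start site along the direction of transcription, and the black bar is the gene. UQCRC2 has 11 mock arcs and 4 PDS arcs, NDUFA4L2 6 and 1, NDUFAF5 7 and 3, and NDUFS6 2 and 3.

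The loops of these genes, like those of both families of ribosomal protein genes, ended at other promoters more often than the loops of genes in general. Counted per gene and loop, 67 of 170 mock loops (39.4%, 95% Wilson interval 32.4 to 46.9%) ended at a TSS of another gene, against 27.2% for all protein-coding genes. The share was 50% for cytosolic ribosomal, 38.4% for mitochondrial ribosomal and 32.2% (24.4 to 41.1%) for proteasome genes. Loops that ended inside the same gene away from its start sites made up 15.3% (10.7 to 21.5%), against 28.1% for all genes, 4.55% for cytosolic ribosomal, 14.4% for mitochondrial ribosomal and 14.4% for proteasome genes. The respiratory chain genes were short, with a median length of 12.6 kb against 27.4 kb, and gene length moved with these shares. Among genes of at most 14.04 kb, 56.3% of the loops of the respiratory chain genes and 50.2% of those of all genes ended at another gene's TSS, a difference within the interval. In PDS-treated cells the share was 28.6% (17.2 to 43.6%) of 42 loops, against 24.7%. No loop of either list joined the start sites of different respiratory chain genes, other than those of read-through genes and their host.

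The span of the loops was like that of other promoter loops. The median distance between anchor midpoints was 21.1 kb (95% interval 16.9 to 29.0 kb) in mock-treated and 19.6 kb (14.4 to 27.2 kb) in PDS-treated cells, against 19.9 and 19.0 kb for all promoter loops. The 89 anchors at respiratory chain start sites were 1.5 to 29.0 kb wide, with a median of 5.96 kb. Of these, 33 also held a TSS of another protein-coding gene, 27 were used in both lists, 56 in the mock list alone and 6 in the PDS list alone. No share of all promoter anchors is set beside these counts. The mock list held 30535 promoter loops and the PDS list 7768, so the counts describe these anchors only.

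A G4 motif was present in 57 of the 89 anchors, and the share over all promoter anchors is not given here. Loops whose respiratory chain anchor held a motif numbered 111 in mock-treated and 30 in PDS-treated cells (0.270, 95% interval 0.181 to 0.403), and loops without a motif there 55 and 10 (0.182, 0.0938 to 0.352). These intervals overlapped, and for all promoter loops the ratios were 0.252 with and 0.262 without a motif. In the mock list, 23062 promoter loops held a motif at a promoter anchor and 7473 did not. A loop with promoters at both ends could hold it at either. A predicted motif does not show that a G4 structure formed in these cells, and no G4 structures were measured here.

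Loops were unevenly spread over chromosomes. On chromosomes 2, 6, 14, 16, 17 and 20, several of which HepG2 is known to carry in extra copies, 79.0% of all protein-coding genes had a mock loop, against 52.5% elsewhere. The respiratory chain genes followed, with 18 of 24 (75%) there and 44 of 78 (56.4%) elsewhere. In PDS-treated cells the shares were 54.2% and 20.5%, against 47.5% and 21.6% for all genes. The part of copy number in these values was not tested.

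Other genes of the pathway were counted from lists of known function. Of 11 regulators of respiratory gene expression, 9 had a mock loop (81.8%, against 59.8% of all protein-coding genes) and 2 a PDS loop (against 28.7%). They had 25 loops against 2, a ratio of 0.08 (95% interval 0.0210 to 0.305), which included the 0.254 of all promoter loops. Their PET ratio, 0.0690 (0.0308 to 0.154; 87 and 6 PETs), lay below the 0.228 of all promoter loops. The 6 PDS PETs were 2 loops at the minimum of 3 PETs, at POLRMT and ESRRA. Unlisted loops, which may have had up to 2 PETs each, were counted as 0, so this PET ratio is known with little precision. ESRRA, a nuclear receptor that activates respiratory genes, had 8 loops with 28 PETs against 1 with 3, and GABPB1, the partner of GABPA, had 4 with 13 PETs against none. Of 41 assembly factors with other symbols, 26 had a mock loop (63.4%) and 11 a PDS loop, with 94 loops against 31 (0.330, 0.220 to 0.494). NUBPL, an iron-sulfur protein for complex I assembly on chromosome 14, alone had 23 loops with 106 PETs against 18 with 63. Of 13 genes of the citric acid cycle, 9 had a mock loop (69.2%) and 8 a PDS loop, with 39 loops against 9 (0.231, 0.113 to 0.469). The electron carrier CYCS (cytochrome c) had 1 mock loop with 3 PETs, and CYC1 (cytochrome c1) had none.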

How the data were processed

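POLR2A HiChIP-seq loops of HepG2 cells were analysed as deposited. Per the labels and methods, the authors aligned reads to GRCh38 and processed them with HiC-Pro 3.1.0. The deposited values are whole-number counts of PETs per loop, not scaled, with 2 replicates combined in 1 list per condition; the loop caller and the way replicates were combined are not given in the sources used here. Of 81742 anchors, 81739 began at an MboI site of GRCh38. No loop was left out.

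Start sites came from GENCODE release 44. Loops were matched between lists by identical anchors. For ratio intervals (95%), the PDS part of the mock and PDS sum was given a Wilson interval, which was then turned into a ratio (scipy 1.17.1, Python 3.11.15, numpy 2.4.6, matplotlib 3.10.9). A gene was set against the promoter ratio where it had at least 10 mock PETs. Assignment and motif search were tested on simulated data.

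The members and lists were chosen with earlier results of these data known, as were the 6 chromosomes. Genes were named by rule: the 4 with most mock PETs per complex, the 10 with most PDS PETs, those with a PDS-only loop of at least 4 PETs, those called by the interval, partners of the 10 strongest mock and 5 strongest PDS loops, and isoform pairs. NDUFS8, ATP5PB, COX8C and the genes named from other lists were singled out after their values were seen. NDUFAF7, and NDUFV2, which tied with NDUFS7, were also named outside these rules.

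Alternatives were other start site windows, canonical starts, higher PET minimums, subunits alone, anchors without other start sites, distance limits and extended anchors. Some items are not reported here.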

Additional observations from a re-analysis of the deposited data

How the results depend on the processing

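No paired analysis was possible because the 2 replicates of each condition were combined in 1 list, and leaving out a replicate was not run for the same reason. Of 62 alternative values for 14 results, 48 stayed within the interval or within 1.5 times the count, 14 moved and 0 turned in direction. With at least 5 PETs, the loop ratio of the respiratory chain genes was 0.138 and the PET ratio 0.121 (0.125 and 0.115 for all promoter loops), a mock loop was found at 21 genes and a PDS loop at 3, and the loop ratios of complexes I and V were 0. Complex II had no loop left. Where anchors with start sites of other genes were left out, 18 genes had a PDS loop. Without the 6 chromosomes, a setting added after the data had been seen, the PET ratio was 0.179 (0.204 for all promoter loops) and 16 genes had a PDS loop. With anchors extended by 5 kb, 30.1% of mock loops were listed in both, against 32.2% of all promoter loops. The share of genes with a G4 motif was 83.3% with spacers of up to 12 bases and 14.7% in the narrow window. The number of genes with an interval below the promoter ratio was 0 with 2 PETs for every unlisted loop, also added later. The PET ratio of the 41 other assembly factors was 0.177 without NUBPL, added later too. The cause of these shifts was not tested. Single genes with 3 to 10 PETs are known with little precision, and a loop missing from a list may have had up to 2 PETs.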
